A study of Mus musculus with 18 samples.

Results

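Differentiating clone 8 was compared with differentiating clones A6 and B2 for the extent of their move towards endoderm. The 3 clones are mouse induced pluripotent stem cell (iPSC) lines that the labels call Dnmt3ab deficient. The products of Dnmt3a and Dnmt3b add methyl groups to unmethylated DNA. The comparison used the arrays titled with a control iPSC line, 4 with clone 8 and 8 with A6 or B2, which made 12 of the 18 arrays of the series. Each of them carried RNA of a clone marked as showing some differentiation in 1 dye and RNA of a control iPSC line, numbered 3, 4, 5 or 6, in the other. Every clone met every control line once, so a difference between clones on the same control line does not hold the control RNA. The other 6 arrays held the same 3 clones without that mark, each beside mouse embryonic fibroblasts (MEF) and beside V6.5, a mouse embryonic stem cell (ESC) line. The mark of differentiation is the labels' own, and they set these clone channels outside the statistics of the publication.

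Several features limit the groups as a model. Each clone is 1 line, and the labels give 1 source per clone, so the 4 arrays of a clone repeat that source. Among the differentiating arrays each clone also lay on 1 slide of its own, so clone and slide cannot be told apart. A p-value here measures the spread between arrays, not between clones. With 1 clone against 2 the smallest exact p that clone labels could give is 0.333. All cells, controls included, had been kept on irradiated MEF feeders and were then passaged on gelatin without fresh feeders. The alleles behind the deficiency, and any treatment or time, are not given in the sources used here. The clone was in Cy5 on 1 of its 4 arrays and in Cy3 on the other 3, and the fit held a term for the dye. The Cy5 array was that with line 6 for clone 8, line 5 for A6 and line 4 for B2. Ratios given by array are not adjusted for dye. Between clones on the same line they hold any dye bias, except on line 3, where all clones were in Cy3. Values are log2 ratios of the clone over the control line, where 1 unit is a 2-fold change, or log2 signals of a single channel.

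Primitive endoderm is the early lineage that forms beside the pluripotent epiblast and goes on to make the yolk sac endoderm. Gata6 is a transcription factor at the head of this lineage, and Sox17, Sox7, Foxa2 and Gata4 act with or after it. Its cells secrete a basement membrane of laminin and type IV collagen and take up maternal nutrients through cubilin, amnionless and megalin with the adaptor Dab2. Visceral endoderm later adds apolipoproteins and alpha-fetoprotein.

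GATA factors bind DNA at short stretches with the core GATA. Promoters of 2 endoderm genes that stood higher in clone 8 and that hold such letters are shown, to give the sequence context of genes from the same lineage as Gata6. The window was the 250 bases before the RefSeq start of a gene (build GRCm38.p6), and the letters searched were AGATAA and TGATAA on both strands. Capitals mark the match, which begins 179 bases before the start in Dab2 (chr15:6299539-6299788, plus strand) and 183 bases before it in Foxa2 (chr2:148045465-148045714, minus strand).
Dab2: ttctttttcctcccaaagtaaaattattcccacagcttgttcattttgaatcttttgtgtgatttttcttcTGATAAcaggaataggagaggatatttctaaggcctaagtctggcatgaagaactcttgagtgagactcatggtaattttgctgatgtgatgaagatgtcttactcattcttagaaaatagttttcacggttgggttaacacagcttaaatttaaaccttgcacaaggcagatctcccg
Foxa2: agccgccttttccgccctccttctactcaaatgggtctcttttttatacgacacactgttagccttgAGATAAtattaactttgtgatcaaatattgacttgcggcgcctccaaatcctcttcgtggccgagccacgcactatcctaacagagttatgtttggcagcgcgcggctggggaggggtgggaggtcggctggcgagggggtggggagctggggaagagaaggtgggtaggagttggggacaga
Of 27 endoderm genes called higher in clone 8 in the comparison without 1 array that is described next, 17 had a promoter in the RefSeq table and 2 of these (11.8%) held a match. Among all 40 endoderm genes with an entry, 6 did (15%), against 5092 of 27025 genes in the table (18.8%), each counted with a match in any of its promoters. Counted by promoter, 5452 of 32851 held a match (16.6%). The share was no higher in these members than in all genes, and a match describes the letters of the window and no more.

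One of the 12 arrays went against its labels, so the counts and the genes described by array are given with and without it. A single value below leaves it out unless 12 arrays are named. This is the array labelled clone 8 with control line 5. Dnmt3a, a gene named in the deficiency, had a log2 ratio of -1.97, -1.82, 0.05 and -1.54 in clone 8 on the arrays with control lines 3, 4, 5 and 6. The same gene had -1.42, -1.82, -1.68 and -1.64 in A6 and -2.20, -1.84, -1.68 and -1.77 in B2. Dnmt3a was thus low against the control on 11 arrays and level with it on the array labelled clone 8 with control line 5. Dnmt3b, probed at a single site, ran from -0.94 to 0.94 across the 12 arrays and went more with the control line than with the clone. In clone 8, A6 and B2 it had 0.16, -0.12 and -0.08 with line 3 and -0.19, -0.49 and -0.78 with line 4. With line 5 it had -0.65, -0.94 and -0.63, and with line 6 0.77, 0.91 and 0.94. The -0.65 of the array in question thus lay among the values of its labelled line 5, but also within those of line 4, so Dnmt3b does not settle the labels. The files do not say whether these probes lie inside the deleted part.

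The control channel of that array did not resemble control line 5 elsewhere. Its correlation across genes with the other arrays of line 5 was 0.952 at most, while the control channels of the same line correlated at 0.996 or above on all other arrays. Its clone channel correlated with the other clone 8 channels at 0.952 to 0.959, against 0.996 or above among the remaining channels of a clone. The 2 channels of the array resembled each other more (r = 0.9959) than those of any other of the 12 arrays (0.9804 to 0.9945), and its ratios had the smallest spread over all genes, an SD of 0.21 against 0.24 to 0.46. The median ratio of the endoderm lists was -0.07 on this array and 0.51 to 0.63 on the other 3 of clone 8. The array of A6 with control line 3 had the next smallest ratios, with an endoderm median of 0.10 and an SD of 0.24, and leaving it out as well gave 35 endoderm calls in place of 31. How the array came to differ was not tested.

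**Figure D1:**
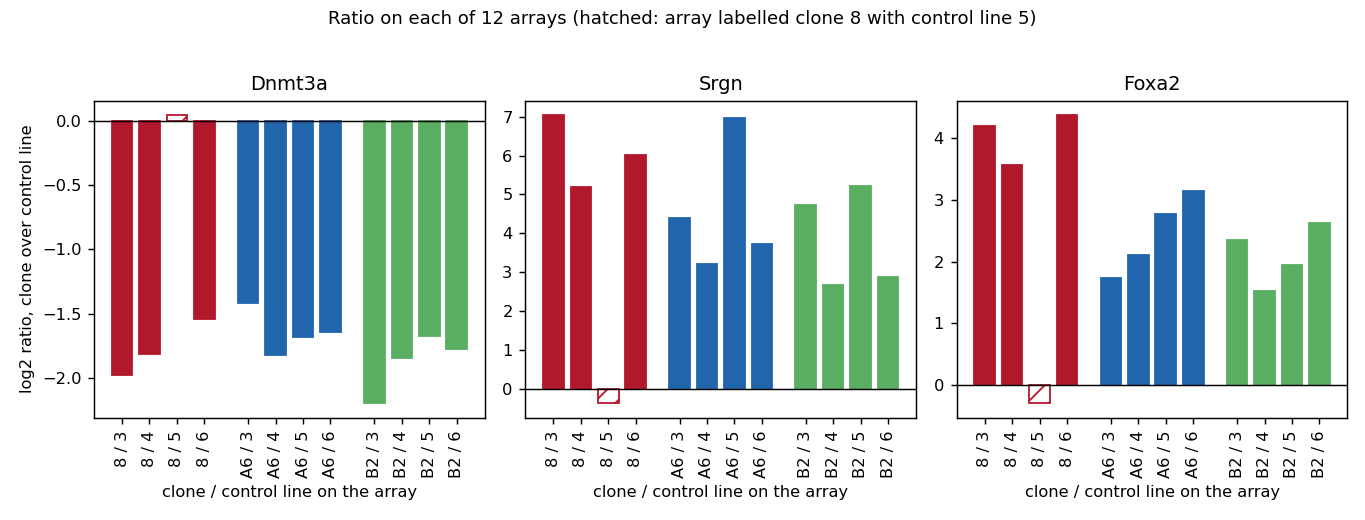
Log2 ratio of the clone over the control line for Dnmt3a, Srgn and Foxa2 on each of the 12 arrays, with the array labelled clone 8 with control line 5 hatched. On that array the ratios were 0.05, -0.38 and -0.30, while the other 3 arrays of clone 8 had -1.97 to -1.54 for Dnmt3a, 5.20 to 7.05 for Srgn and 3.56 to 4.38 for Foxa2.

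Gata6, Srgn and Lama1, the markers that define the endoderm comparison, were high in all 3 clones and highest in clone 8 on every array but the odd one. The Gata6 ratio was 4.05, 3.77, -0.28 and 3.76 in clone 8 on the arrays with lines 3, 4, 5 and 6, against 1.73, 2.44, 3.30 and 2.10 in A6 and 2.18, 1.83, 2.17 and 1.43 in B2. Clone 8 lay above both other clones on lines 3, 4 and 6 and below both on line 5. With 12 arrays the difference between clone 8 and the A6 and B2 clones was 0.68 ± 0.71 (SE; adjusted p = 0.627, limma with Benjamini-Hochberg adjustment over all genes). Without the array labelled clone 8 with control line 5 it was 1.87 ± 0.27 (adjusted p = 0.00222), and A6 and B2 differed by 0.49 ± 0.22 (adjusted p = 0.222). Of 3 probes named Gata6, the brightest was used (chr18:11291591-11291649, mouse build mm7 as in the files). The other probes gave 1.18 (chr18:11271063-11271122) and 0.03 (chr18:11261086-11261145), so the 3 did not agree in size.

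Srgn, the secreted-granule proteoglycan serglycin, had the largest fitted ratio of all endoderm genes in each clone. It reached 7.05, 5.20, -0.38 and 6.01 in clone 8 on lines 3 to 6, against 4.40, 3.20, 6.97 and 3.72 in A6 and 4.74, 2.66, 5.22 and 2.86 in B2. Its difference was 0.25 ± 1.25 with 12 arrays (adjusted p = 0.933) and 2.41 ± 0.34 without the odd array (adjusted p = 0.00198; probe at chr10:62013209-62013268). The clone channel, not divided by the control, showed the same order: log2 signals of 16.28, 16.21, 14.79 and 16.13 in clone 8, 13.89, 14.08, 14.29 and 14.03 in A6 and 13.17, 13.29, 13.0 and 13.23 in B2. The normalization of these signals used both channels of an array, so they are not wholly free of the control, and they are not adjusted for dye. The control channels of the other 11 arrays ran from 7.32 to 11.01 for Srgn, and the control channel of the odd array read 15.17. In bulk RNA, more endoderm cells and more RNA per cell cannot be told apart.

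Lama1, the alpha 1 chain of laminin and a component of the first basement membranes, had ratios of 3.34, 3.36, -0.16 and 3.48 in clone 8 on lines 3 to 6. A6 had 1.82, 2.43, 2.71 and 2.28, and B2 had 2.21, 1.89, 2.11 and 2.01. The clone 8 difference was 0.32 ± 0.56 with 12 arrays (adjusted p = 0.782) and 1.28 ± 0.17 without the odd array (adjusted p = 0.00159; probe at chr17:66089045-66090007), and a dimmer probe gave 2.24. A6 and B2 did not differ by more than the array spread (0.26 ± 0.15, adjusted p = 0.371). With each clone taken as 1 value and the odd array left out, the adjusted p was 0.109 for Gata6, 0.113 for Srgn and 0.102 for Lama1 (limma), so none of the 3 passed over clones.

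**Figure D2:**
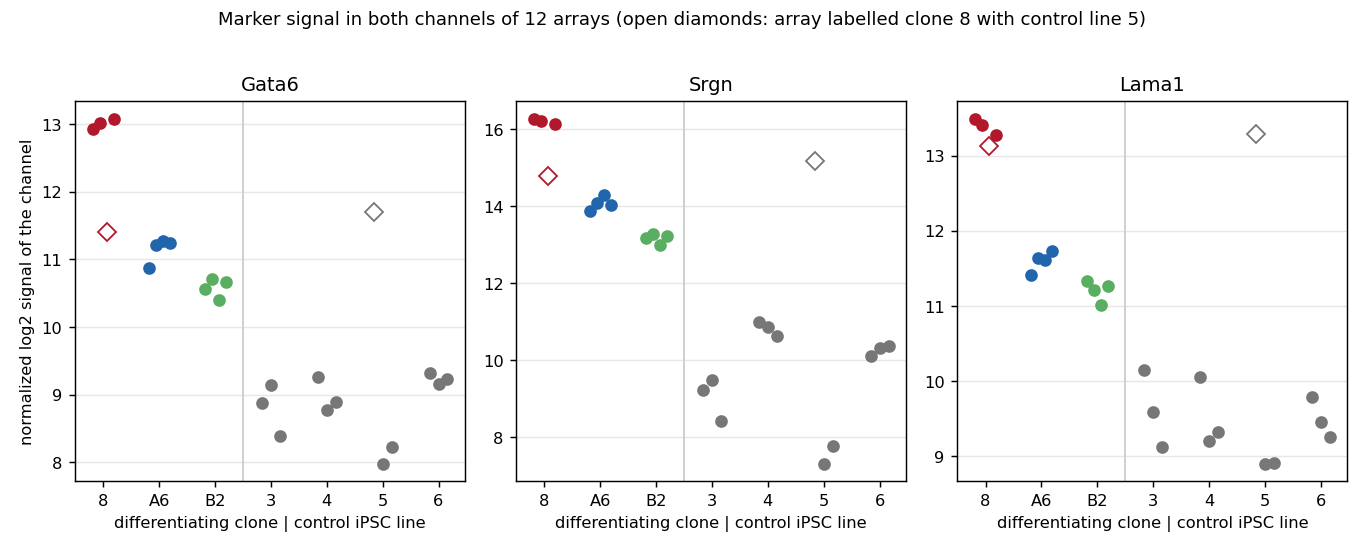
Normalized log2 signal of Gata6, Srgn and Lama1 in the clone channels (left of each panel: clone 8, A6, B2) and the control channels (right: lines 3 to 6) of the 12 arrays. Open diamonds mark the array labelled clone 8 with control line 5, whose control channel had 15.17 for Srgn against 7.32 and 7.78 in line 5 on the arrays of A6 and B2.

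Across all genes the comparison was wide. Of 24050 autosomal genes tested with 12 arrays, 1358 were higher in clone 8 (5.65%) and 1459 lower (6.07%) at adjusted p under 0.05 in limma, and 72 of the 2817 differed by at least 1 log2 unit (0.299%). Without the odd array 2638 were higher (11%) and 2575 lower (10.7%), 5213 in all (21.7%), of which 244 differed by at least 1 log2 unit (1.01%). All 2528 genes called in both fits had the same direction, and 289 of the 12-array calls were lost without the array. The 12-array count rested on the arrays of clone 8: it was 513 without the array on line 6, 983 without line 4 and 1235 without line 3, and 1696 and 1802 without the B2 arrays on lines 6 and 3. With ratios centred on the median in place of loess the 12-array calls split into 329 higher and 117 lower. A random block for the clone gave 2648 genes (11%) with the odd array and 4187 (17.4%) without it. Over 3 clone values limma called 0 genes in both cases, with 3990 and 4887 genes at an unadjusted p under 0.05.

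The A6 and B2 clones gave a yardstick for how much sister clones differ. Between A6 and B2, 595 genes were called with 12 arrays (2.47%) and 3347 with the odd array left out of the shared fit (13.9%), but just 5 of the 3347 differed by at least 1 log2 unit (0.0208%). The 3347 became 1304 without the B2 array on line 4 and 1692 to 2179 without the B2 array on line 6 or 3 or the A6 array on line 6 or 4. In absolute size the median gene differed by 0.08 for clone 8 without the odd array and by 0.05 between A6 and B2, and the SD of the differences was 0.26 and 0.14.

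The 4 endoderm lists held 60 genes, of which 56 were tested. With 12 arrays 4 were higher in clone 8 (Lamb2, Plat, Habp2 and Fst) and 2 were lower (Apoc2 and Apoa2), beside 5.65% and 6.07% of all genes. With the clone as a random block Plat (adjusted p = 0.0519) and Fst (adjusted p = 0.051) no longer passed, which left 2 higher and 2 lower. This count of 6 was 0, 1 and 2 without the clone 8 array on line 6, 4 or 3, 2 without the A6 array on line 4 or 6 or the B2 array on line 3 or 6, and 10 without the A6 array on line 5. Without the odd array 27 were higher and 4 lower (Hhex, Lama5, Apoa2 and Apoc2), beside 11% and 10.7% of all genes, and 25 did not pass. With the clone as a random block these were 27 and 1. The median difference of the 56 was 0.28 without the odd array, against -0.01 over all genes. All 27 were also called above A6 and above B2 taken singly, beside 12.6% and 15.4% of all genes. This largely follows from their choice, since they had been called against both clones together on the same arrays. Of the 27, 26 stood in the order clone 8, A6, B2, the exception being Sox17, and the same order held for 5590 of the 9094 genes whose highest clone was 8. The 27 had been chosen for a high clone 8, so the order of A6 and B2 alone was free. Without a further array or clone the number called among the 56 stayed between 21 and 42, except that it was 17 without clone B2. The lists were chosen with earlier results of these data known, and 10 of their genes had been named there as rising in the clones.

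Among the transcription factors, 5 of 13 were higher in clone 8 without the odd array and 1 was lower, beside 11% and 10.7% of all genes. With 12 arrays none was called. Sox7, an early primitive endoderm factor, had ratios of 3.42, 2.98, 0.07 and 1.54 in clone 8 on lines 3 to 6, against 0.23, 1.03, 1.83 and -0.31 in A6 and 1.09, 0.58, 0.65 and -0.73 in B2. It was the factor that set clone 8 furthest apart, with 2.31 ± 0.31 (adjusted p = 0.00145; 1.45 ± 0.55 and 0.131 with 12 arrays), although its dimmer probe gave 0.39. Foxa2, a forkhead factor of endoderm, had 4.20, 3.56, -0.30 and 4.38 in clone 8, against 1.74, 2.11, 2.77 and 3.14 in A6 and 2.35, 1.53, 1.94 and 2.62 in B2. The Foxa2 difference was 1.80 ± 0.26 (adjusted p = 0.00198; 0.68 ± 0.67 and 0.592 with 12 arrays).

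Sox17, which specifies endoderm together with Gata6, had 4.49, 4.11, -0.37 and 3.81 in clone 8, against 1.19, 2.80, 3.57 and 2.18 in A6 and 2.97, 2.26, 2.51 and 2.01 in B2. Its difference was 1.88 ± 0.41 (adjusted p = 0.0143; 0.57 and 0.73 with 12 arrays), and A6 and B2 were level at -0.00 ± 0.43. Its other 2 probes gave 1.34 and 0.01. Gata4, a close relative of Gata6, moved by 0.27 on its brightest probe (adjusted p = 0.00556; 0.19 and 0.0819 with 12 arrays), with ratios of 0.25 to 0.37 in clone 8 off line 5, against -0.01 to 0.21 in A6 and -0.03 to 0.05 in B2. A second Gata4 probe gave 1.27. Hhex, a homeobox gene of anterior visceral endoderm, fell by 0.20 in clone 8 (adjusted p = 0.0496; 0.106 with the clone as a random block; -0.36 and 0.0587 with 12 arrays). Hnf4a (0.02), Foxa3 (0.01) and Gata5 (-0.05), factors of visceral endoderm or its derivatives, had differences under 0.1 that did not pass. For Hnf4a the second probe gave 1.37, so its 2 probes disagreed.

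In the basement membrane list 9 of 11 genes were higher in clone 8 without the odd array, beside 11% of all genes. Lama5 was lower (-0.20, limma adjusted p = 0.041, or 0.0583 with the clone as a random block, and -0.12 and 0.327 with 12 arrays), beside 10.7% of all genes. The median difference of the list was 1.11, and 12 arrays called Lamb2 alone. Col4a1, the alpha 1 chain of type IV collagen, had 3.52, 3.40, -0.36 and 3.81 in clone 8 on lines 3 to 6, against 1.41, 1.52, 2.21 and 1.81 in A6 and 1.28, 1.29, 1.29 and 1.36 in B2. Apart from line 5 the groups did not overlap. The Col4a1 difference was 2.09 ± 0.18 (adjusted p = 0.000199; 1.07 ± 0.59 and 0.307 with 12 arrays), and that of its partner chain Col4a2 was 1.49 ± 0.18 (adjusted p = 0.000849; 0.87 and 0.194 with 12 arrays).

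Lamb1 and Lamc1 are the beta and gamma chains that join Lama1 in laminin-111. Lamb1 had 3.04, 2.91, -0.17 and 2.96 in clone 8, against 1.38, 1.36, 1.41 and 1.44 in A6 and 1.05, 0.87, 1.02 and 1.00 in B2. Its difference was 1.79 ± 0.15 (adjusted p = 0.000202; 0.99 and 0.229 with 12 arrays). The 3 chains of this laminin thus all rose in clone 8 without the odd array, since Lamc1 rose by 1.26 ± 0.08 (adjusted p = 5.37e-05; 0.66 and 0.285 with 12 arrays) and Lama1 by the 1.28 given above. Sparc, a collagen-binding matrix protein abundant in parietal endoderm, rose by 1.11 ± 0.19 (adjusted p = 0.00472; 0.65 and 0.225 with 12 arrays). The nidogens Nid1 and Nid2, which link laminin to collagen, rose by 0.52 and 0.48 without the odd array, and with 12 arrays their differences of 0.36 and 0.28 did not pass. Lamb2 differed in both fits, by 0.60 ± 0.15 with 12 arrays (adjusted p = 0.0373) and 0.85 ± 0.05 without the odd array (adjusted p = 5.9e-05). It had 0.70, 0.73, -0.13 and 0.97 in clone 8, against -0.08, -0.05, 0.05 and 0.19 in A6 and -0.20, -0.23, -0.03 and 0.11 in B2, so A6 and B2 lay near their controls.

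The receptor and uptake list had the largest median difference of the endoderm lists, 1.42. Without the odd array 7 of its 11 genes were higher in clone 8 and none lower, beside 11% and 10.7% of all genes, while 12 arrays called none. Cubn, the receptor cubilin, had 5.88, 4.11, -0.71 and 6.00 in clone 8 on lines 3 to 6, against 2.83, 1.98, 5.27 and 3.38 in A6 and 3.80, 1.87, 3.41 and 2.50 in B2. Its difference of 2.48 ± 0.35 was the largest of the 56 endoderm genes (adjusted p = 0.00191; 0.69 ± 1.05 and 0.75 with 12 arrays). Amn, amnionless, which brings cubilin to the cell surface, had 3.79, 3.43, -0.14 and 3.58 in clone 8, against 1.33, 1.48, 2.11 and 1.39 in A6 and 1.84, 0.51, 1.32 and 0.89 in B2. Dab2, the adaptor that draws these receptors into the cell and whose promoter is printed above, had 3.63, 3.24, -0.07 and 3.67 in clone 8, against 1.29, 1.60, 1.92 and 2.36 in A6 and 1.66, 0.60, 1.39 and 1.84 in B2.

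The Amn difference was 2.37 ± 0.27 (adjusted p = 0.000686; 1.31 and 0.242 with 12 arrays) and that of Dab2 2.01 ± 0.23 (adjusted p = 0.000803; 1.03 and 0.315 with 12 arrays), where 1 of 3 Dab2 probes gave -0.07. Lrp2, the receptor megalin that works with cubilin, rose by 1.42 ± 0.15 (adjusted p = 0.000461; 0.97 and 0.0632 with 12 arrays), so all 4 genes of this uptake route were higher. Pdgfra, the receptor tyrosine kinase that marks primitive endoderm, had 2.57, 2.29, -0.23 and 3.03 in clone 8, against 0.30, 0.65, 1.03 and 1.56 in A6 and 0.66, 0.36, 0.53 and 1.23 in B2. Its difference was 1.84 ± 0.16 (adjusted p = 0.0002; 1.12 and 0.133 with 12 arrays). Pth1r, the parathyroid hormone receptor found on parietal endoderm, rose by 1.49 ± 0.14, and Fgfr4 by 0.69 ± 0.13, while with 12 arrays their differences of 0.72 and 0.26 did not pass. Slc2a2 (-0.00), Cxcr4 (-0.02) and Kit (-0.11) did not pass, nor did Thbd (0.33), a surface protein of parietal endoderm.

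The list of secreted and visceral endoderm genes had calls in both directions. Without the odd array 6 of 21 were higher in clone 8 (Srgn, Ctsh, Plat, Habp2, Bmp2 and Ihh) and 2 were lower, with a median difference of 0.12. Beside them stood 11% of all genes higher and 10.7% lower, so the lower calls were no more frequent than among all genes. Ctsh, the lysosomal protease cathepsin H, had 4.41, 3.82, -0.39 and 4.19 in clone 8 on lines 3 to 6, against 2.93, 2.75, 3.56 and 2.88 in A6 and 2.70, 2.13, 2.62 and 2.32 in B2, a difference of 1.50 ± 0.23 (adjusted p = 0.00289; 0.27 and 0.866 with 12 arrays). Plat, tissue plasminogen activator and a product of parietal endoderm, passed in both fits with 0.91 ± 0.25 with 12 arrays (adjusted p = 0.0482; 0.0519 with the clone as a random block) and 1.29 ± 0.15 without the odd array (adjusted p = 0.000812). It had 1.31, 1.17, -0.11 and 1.39 in clone 8, against 0.10, 0.06, 0.42 and 0.32 in A6 and -0.22, -0.22, -0.13 and -0.12 in B2. Plat was therefore above its controls in clone 8, close to them in A6 and slightly below them in B2.

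Habp2 was not well above background on any array of A6 or B2, and it was at least 1.46-fold higher in clone 8 without the odd array and at least 1.43-fold higher with 12 arrays (adjusted p = 0.000553 and 0.0348), a bound set by the lowest signals well above background. It was kept among the genes tested through clone 8, so its call follows in part from that choice, and the higher calls with 12 arrays were 3 in place of 4 when every channel had to be well above background. Apoc2 and Apoa2, which encode apolipoproteins of visceral endoderm and liver, went the other way in both fits. Apoc2 had 0.98, 0.94, 0.33 and 0.17 in clone 8, against 1.18, 2.00, 1.97 and 1.35 in A6 and 1.69, 1.46, 1.45 and 0.96 in B2, a difference of -0.91 ± 0.19 with 12 arrays (adjusted p = 0.0193) and -0.73 ± 0.20 without the odd array (adjusted p = 0.0326; 0.0775 with the clone as a random block). Apoa2 differed by -0.49 ± 0.08 (adjusted p = 0.00678) and -0.43 ± 0.09 (adjusted p = 0.0089). Alpha-fetoprotein, Afp, stood at 0.49, 0.59 and 0.43 over the controls in clone 8, A6 and B2 and did not differ beyond the array spread (-0.02 ± 0.19). Apoa1 (0.04), Apoa4 (-0.04), Apob (-0.08), Trf (-0.04) and Cer1 (-0.01) did not pass either, and all 5 lay within 0.1 of the controls in each clone.

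**Figure D3:**
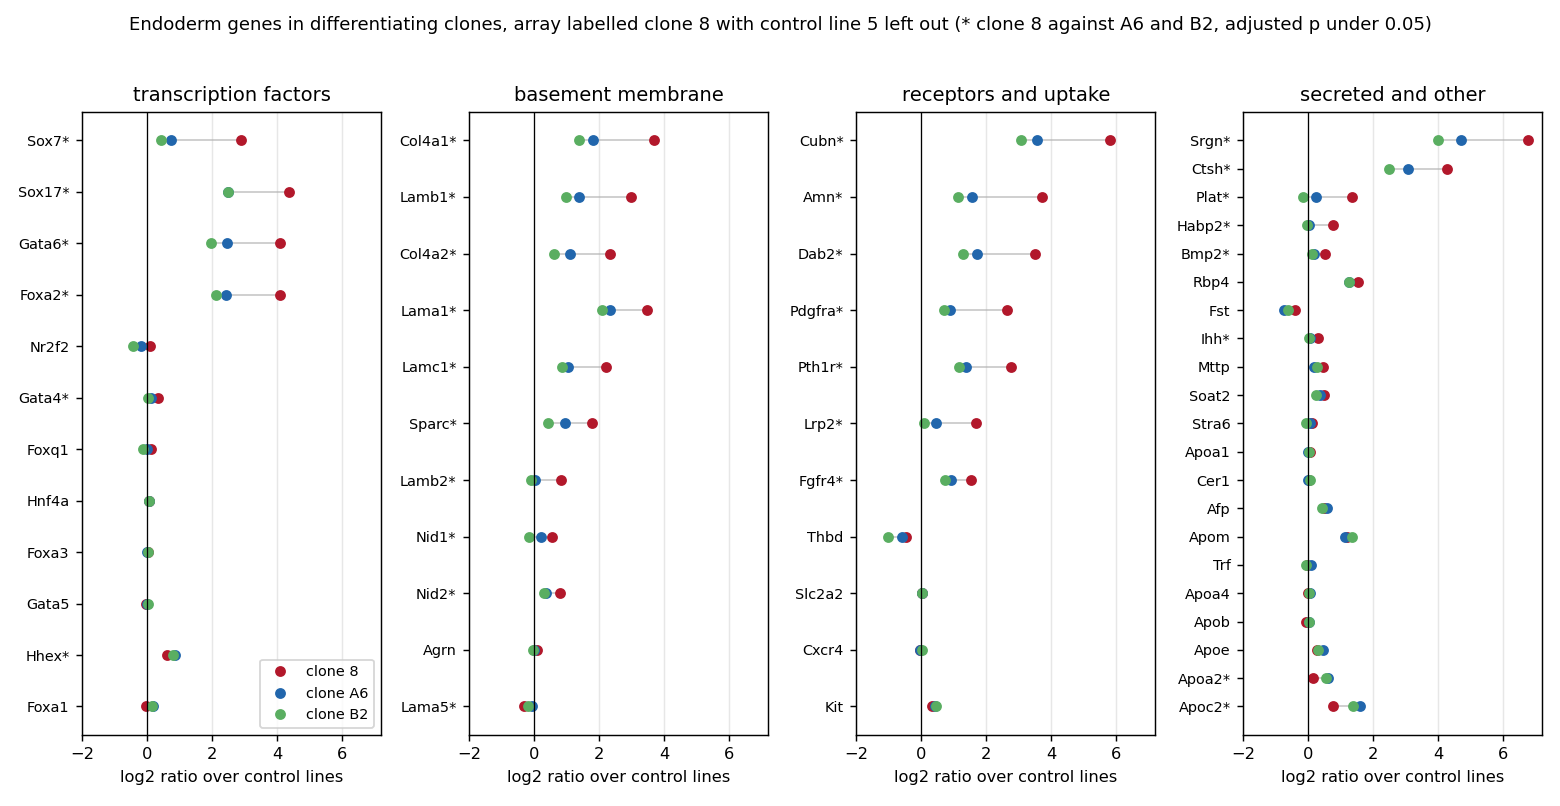
Fitted log2 ratio over the control lines of the endoderm genes in clone 8, A6 and B2 without the array labelled clone 8 with control line 5, in 4 panels for transcription factors, basement membrane, receptors and uptake, and secreted genes. Asterisks mark genes called between clone 8 and the other clones, which were 31 of the 56 on the lists (1 is not drawn), and clone 8 lay furthest right for Srgn (6.75, with 4.69 in A6 and 3.99 in B2) and Cubn (5.80, with 3.55 in A6 and 3.08 in B2).

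How far each clone had moved can be read from the lists as a whole, fitted over the 4 control lines without the odd array. The basement membrane list had a median of 1.79 in clone 8, 0.93 in A6 and 0.41 in B2. The uptake list had 1.68, 0.88 and 0.69, the secreted list 0.46, 0.18 and 0.10, and the transcription factors 0.11, 0.11 and 0.04 in the same clones. With 12 arrays the basement membrane list had 1.40, 1.01 and 0.49 in clone 8, A6 and B2, the uptake list 1.30, 0.99 and 0.81 and the secreted list 0.37, 0.20 and 0.12. The transcription factors then had 0.07, 0.12 and 0.05, with A6 above clone 8. Members at least 1 log2 unit above the controls numbered 22 of 56 in clone 8, 17 in A6 and 14 in B2 without the odd array. Among all 24050 genes 355, 219 and 220 did so in the same clones, so clone 8 had the most among all genes too. The order clone 8, A6, B2 held for 34 of 56 genes (60.7%), beside 23.2% of all genes, and clone 8 was the highest clone for 39 of 56 (69.6%), beside 37.8% of all genes. These values share the control channels, and the clones have 1 RNA source each.

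The 10 genes named earlier as rising stood at least 1 log2 unit above the controls in each of the 3 clones, which is a description of genes chosen for that. Between A6 and B2, none of the 56 endoderm genes was called with 12 arrays (limma, beside 1.21% of all genes higher and 1.27% lower), and 13 were higher in A6 without the odd array with none lower, beside 6.54% and 7.38% of all genes. The 13 were Sparc (0.52 ± 0.03, adjusted p = 0.000222), Nid1, Lamb1, Col4a2, Col4a1, Lamc1, Lamb2, Plat, Thbd, Lrp2, Ctsh, Trf and Apoe, and 7 of them are basement membrane genes. Their differences ran from 0.12 for Lamb2 to 0.59 for Ctsh, each smaller than the clone 8 difference of the same gene apart from Thbd, Trf and Apoe. Gata6 (0.49), Srgn (0.70) and Foxa2 (0.33) did not pass between A6 and B2.

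Beyond the endoderm lists, the largest differences of clone 8 with 12 arrays by the rule for naming were in no endoderm list. That rule took called genes whose clone 8 value was on the same side of A6 and B2 on every control line, so it passes over genes that the odd array turns, such as Plbd1 and Enpep below. The 8 largest rises it gave were Rpgrip1, Pdlim4, Dok2, Cd99, Emp2, Car2, P3h4 and Wnt10a, from 1.64 to 1.17. Pdlim4, an actin-binding PDZ and LIM protein, had 0.34, -0.03, -0.17 and 0.34 in clone 8 on lines 3 to 6, against -1.0, -1.68, -1.57 and -1.29 in A6 and -1.44, -1.60, -1.64 and -1.43 in B2. Clone 8 was thus at the control level and A6 and B2 below it, on all 4 lines, with a difference of 1.58 ± 0.08 (adjusted p = 0.000117; 1.61 ± 0.09 and 4.04e-05 without the odd array), and a dimmer Pdlim4 probe gave 0.08. Rpgrip1, a ciliary protein of photoreceptors, had -0.13, -0.21, -0.96 and 2.20 in clone 8, against -1.46, -2.06, -1.79 and -0.13 in A6 and -2.10, -1.72, -1.92 and -0.10 in B2. Its difference was 1.64 ± 0.16 (adjusted p = 0.00104; 1.83 ± 0.14 and 0.000119 without the odd array), and 2 of its 4 probes gave -0.04 and 0.08 without that array.

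The 8 largest falls under the rule were Stra8, Smc1b, Khdc3, Aurkc, Mmrn2, Ankrd35, Tmem40 and Dazl. Stra8, which the retinoic acid signal turns on at the start of meiosis, had -0.66, 0.12, 2.26 and -2.54 in clone 8 on lines 3 to 6, against 1.51, 2.34, 2.74 and -0.69 in A6 and 2.40, 3.16, 3.14 and 0.22 in B2. Clone 8 was the lowest clone on each line, which the rule required of a fall. The control channels of line 6 read 14.24 to 14.31 for Stra8, against 10.70 to 12.07 in lines 3 to 5. Stra8 differed by -2.06 ± 0.36 (adjusted p = 0.0103; -2.55 ± 0.28 and 0.000633 without the odd array). Smc1b, the meiotic cohesin subunit, had 2.00, 1.54, 0.91 and -0.41 in clone 8, against 3.29, 3.17, 3.59 and 1.08 in A6 and 4.04, 3.51, 3.73 and 1.45 in B2. Smc1b was above the controls in all 3 clones except in clone 8 on line 6, and lower in clone 8, with a difference of -1.97 ± 0.20 (adjusted p = 0.00127; -1.72 and 0.00035 without the odd array).

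Khdc3, an oocyte gene of the maternal effect complex, differed by -1.75 ± 0.16 (adjusted p = 0.000973), Aurkc, the meiotic Aurora kinase, by -1.71 ± 0.30 (adjusted p = 0.0104) and Dazl, an RNA-binding protein of germ cells, by -1.45 ± 0.24 (adjusted p = 0.00852). Without the odd array these were -1.72, -2.14 and -1.32 and all 3 were called. The calls of Stra8, Aurkc, Emp2, P3h4 and Wnt10a were lost when the clone 8 array on line 3, 4 or 6 was left out of the 12, those of Dok2 and Dazl when the array on line 6 was, and that of Wnt10a also without the B2 array on line 6. The sizes then stayed between -1.97 and -1.82 for Stra8, -1.63 and -1.47 for Aurkc, 1.07 and 1.22 for Emp2, 1.03 and 1.1 for P3h4 and 1.01 and 1.29 for Wnt10a, and were 1.25 for Dok2 and -1.33 for Dazl.

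Applied without the odd array, after the values had been seen, the same rule named Plbd1, Dkk1, Enpep, Cubn, Srgn, Amn, Hs3st1 and Sox7 as the largest rises. Plbd1, a phospholipase B-like lysosomal protein, had 3.47, 3.01, -0.18 and 3.05 in clone 8 on lines 3 to 6, against 0.24, 0.29, 0.97 and 0.20 in A6 and 0.19, -0.04, 0.04 and -0.35 in B2. Dkk1, a secreted Wnt inhibitor made by anterior visceral endoderm, had 3.35, 3.07, -0.45 and 3.31 in clone 8, against 0.09, 0.63, 1.21 and 0.47 in A6 and 0.42, 0.34, 0.17 and 0.12 in B2. For both genes the clone 8 arrays off line 5 lay above all arrays of A6 and B2, which stayed closer to their controls. The rule already required clone 8 to be the highest clone on each line off line 5, so this follows in part from that choice. The differences were 3.05 ± 0.20 for Plbd1 (adjusted p = 7.05e-05; 2.15 ± 0.54 and 0.0375 with 12 arrays) and 2.85 ± 0.20 for Dkk1 (adjusted p = 9.85e-05; 1.89 ± 0.57 and 0.0672 with 12 arrays). Enpep, the cell surface peptidase glutamyl aminopeptidase, was higher by 2.65 ± 0.16 (adjusted p = 5.37e-05; 1.85 ± 0.47 and 0.0386 with 12 arrays). The 8 largest falls under this rule were Stra8, Aurkc, Smc1b, Khdc3, Pop4, Tmem40, Calcoco2 and Mmrn2.

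**Figure D4:**
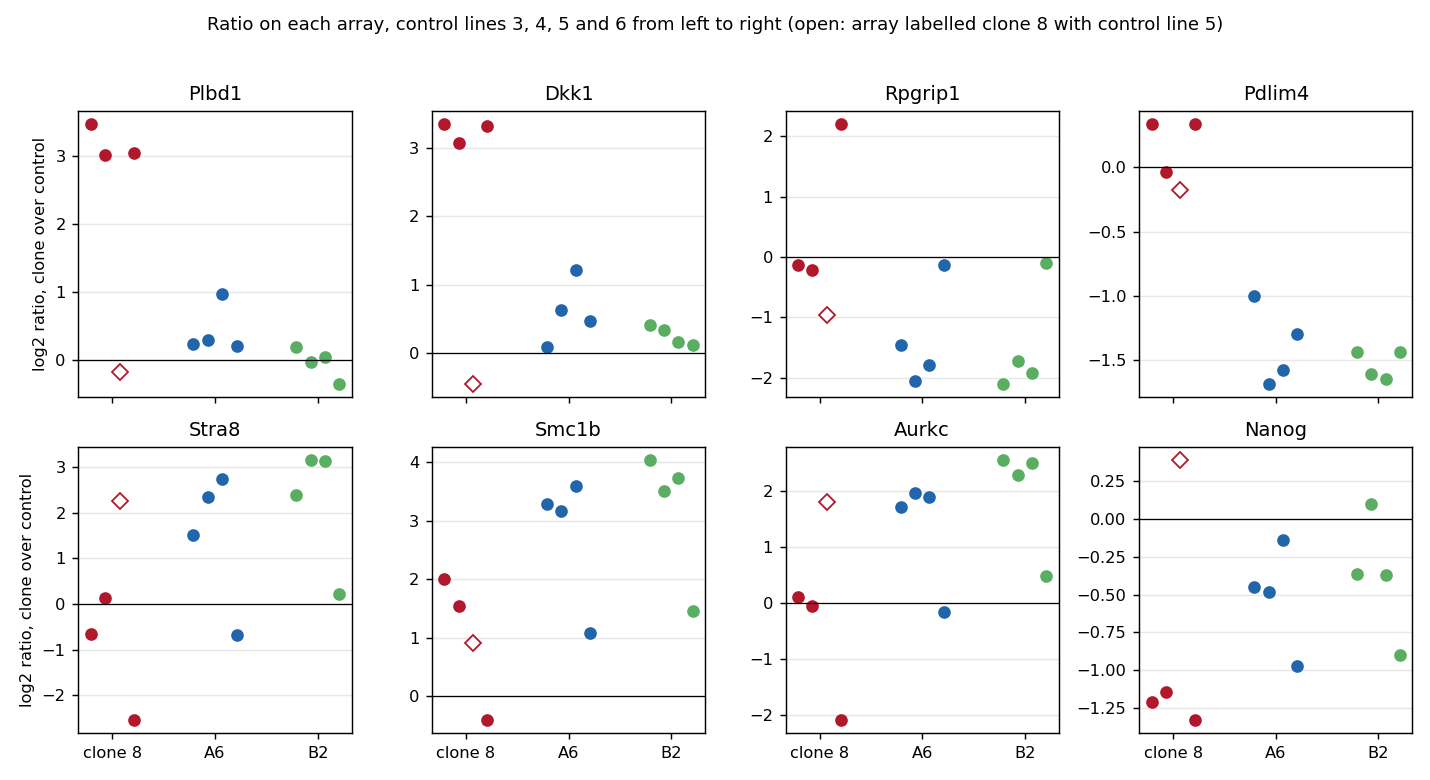
Log2 ratio of the clone over the control for Plbd1, Dkk1, Rpgrip1, Pdlim4, Stra8, Smc1b, Aurkc and Nanog on each array, by clone (clone 8, A6, B2) with control lines 3, 4, 5 and 6 from left to right. Open points are the array labelled clone 8 with control line 5. Plbd1 and Dkk1 stood between 3.01 and 3.47 on the other arrays of clone 8. Stra8 was lower in clone 8 than in A6 and B2 on every line, which the rule that named it required.

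Most pluripotency genes were lower in clone 8 once the odd array was left out. With 12 arrays 3 of 32 were higher and 6 lower, beside 5.65% and 6.07% of all genes. Without the odd array 3 were higher (Klf5, Tdh and Zfp42) and 22 lower, beside 11% and 10.7% of all genes, with a median difference of -0.39. Nanog, a core factor of naive pluripotency, had -1.21, -1.15, 0.39 and -1.33 in clone 8 on lines 3 to 6, against -0.45, -0.48, -0.14 and -0.97 in A6 and -0.36, 0.10, -0.37 and -0.90 in B2, a difference of -0.78 ± 0.06 (adjusted p = 0.000123; -0.38 ± 0.23 and 0.368 with 12 arrays). Sox2 differed by -0.42 ± 0.10 (adjusted p = 0.0223; -0.35 ± 0.10 and 0.0494 with 12 arrays), and its 12-array call was lost without any 1 of 9 of the other arrays. Pou5f1, the third core factor, did not: 0.01 ± 0.08 (adjusted p = 0.937), with ratios of -0.26 to 0.31 on all 12 arrays.

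Jam2, a junction protein expressed in embryonic stem cells, had -1.18, -1.02, 1.44 and -2.67 in clone 8 on lines 3 to 6, against -0.15, -0.05, -0.08 and -1.85 in A6 and 0.12, 0.35, 0.12 and -1.59 in B2. Its difference of -1.11 ± 0.11 was the largest fall in this list (adjusted p = 0.000359; -0.47 and 0.504 with 12 arrays), and its second probe gave -0.30. Klf5, a factor of naive pluripotency, was higher in both fits by 0.67 ± 0.09 and 0.67 ± 0.11 (adjusted p = 0.0036 and 0.00371), since it lay at the control level in clone 8 and below it in A6 and B2. Between A6 and B2, 19 of the 32 were lower in A6 and 2 higher without the odd array, beside 7.38% and 6.54% of all genes. With 12 arrays 1 was lower and none higher, beside 1.27% and 1.21% of all genes.

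Markers of primed epiblast and of FGF signalling were called in both directions, with higher calls near the share of all genes without the odd array. Of 16 primed genes, 2 were higher in clone 8 and 6 lower without the odd array, beside 11% and 10.7% of all genes, or 2 and 5 with the clone as a random block, and 1 higher and 1 lower with 12 arrays. Fgf5, the epiblast growth factor, had -2.94, -3.61, -1.19 and -1.55 in clone 8 on lines 3 to 6, against -0.88, -2.23, -1.88 and -0.62 in A6 and -1.65, -1.70, -2.36 and -0.70 in B2, a difference of -1.49 ± 0.15 (adjusted p = 0.000439; -0.82 and 0.241 with 12 arrays). Of 16 targets and feedback inhibitors of the FGF and ERK pathway, 2 were higher (Dusp4 and Egr1) and 7 lower without the odd array, beside 11% and 10.7% of all genes. Among the lower was Spry4 with -0.85 (limma adjusted p = 0.0018, and -0.46 and 0.269 with 12 arrays). With the clone as a random block these were 2 and 5, and with 12 arrays 2 were higher and none lower. The 12-array counts of both lists stand beside 5.65% of all genes higher and 6.07% lower.

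The other lineage lists are read beside 11% of all genes higher and 10.7% lower without the odd array, and 5.65% and 6.07% with 12 arrays. Without the odd array 2 of 23 mesoderm genes were higher and 1 lower (1 and 0 with 12 arrays), 1 of 20 ectoderm genes was higher and 1 lower (0 and 0), and 3 of 14 mesendoderm genes were lower with none higher (1 and 0). Snai1, a repressor of E-cadherin listed with mesoderm and also made in parietal endoderm, had 1.62, 1.43, 0.12 and 1.09 in clone 8 on lines 3 to 6, against 0.09, 0.17, 0.13 and 0.31 in A6 and 0.19, -0.32, 0.09 and 0.10 in B2. It rose by 0.97 ± 0.23 with 12 arrays (adjusted p = 0.0293) and 1.34 ± 0.10 without the odd array (adjusted p = 0.000106). In the trophoblast list 4 of 20 were higher in both fits, the keratins Krt8, Krt18 and Krt19 and the factor Tead4, and Krt8 differed by 0.97 with 12 arrays and 1.14 without the odd array. None of the 20 was lower with 12 arrays and 2 were lower without the odd array, Tfap2c and Gata2. Tfap2c, a trophoblast and germ cell factor, was lower by -1.21 ± 0.05 without the odd array (adjusted p = 2.34e-05; -0.67 and 0.212 with 12 arrays).

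Some fibroblast markers were higher in clone 8. Of 36, 11 were higher with 12 arrays and none lower, beside 5.65% and 6.07% of all genes, and 25 did not pass. The fit without the odd array had 11 higher and 2 lower, beside 11% and 10.7% of all genes, and 23 did not pass. The list as a whole was below the control lines in every clone, with medians of -0.62 in clone 8, -0.60 in A6 and -0.93 in B2 without the odd array and -0.49, -0.62 and -0.95 with 12 arrays. Ccn1, a matricellular protein, was higher by 0.81 and 0.95 in the fits with and without the array, and Postn, periostin, by 0.86 and 0.78, while Vim (0.03) and Tagln (-0.06) did not pass without the array. The part of fibroblast RNA in the clone 8 differences was not tested. Blood cell markers gave none of 15 called with 12 arrays and 1 lower without the odd array, and among 24 cell cycle genes 5 were higher and 5 lower without it, beside 11% and 10.7% of all genes (2 and 3 with the clone as a random block, 1 and 3 with 12 arrays).

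The same clones in the iPSC state, read on other slides, gave the comparison in other RNA. Clone 8 was set against A6 and B2 over the same partner, MEF or V6.5, on 2 and 4 arrays. Both arrays of clone 8 lay on 1 slide and those of A6 and B2 on another, so clone 8 and slide cannot be told apart here either. Of 24048 genes, 402 were higher (1.67%) and 667 lower (2.77%), 1069 in all (4.45%, limma). Of the 56 endoderm genes 18 were higher in clone 8 and 1, Lama5, was lower, and those 18 were all among the 27 higher in the differentiating state. Cubn differed by 3.73 ± 0.27 (adjusted p = 0.00973), Srgn by 3.15 ± 0.29 (adjusted p = 0.0147), Amn by 2.44 ± 0.16, Dab2 by 2.27 ± 0.11, Foxa2 by 1.90 ± 0.22, Gata6 by 1.76 ± 0.21 (adjusted p = 0.0205) and Lama1 by 1.46 ± 0.07 (adjusted p = 0.00666).

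Beside V6.5, clone 8 had a Srgn ratio of 2.74, against -0.58 in A6 and -0.17 in B2, and a Gata6 ratio of 1.01, against -0.23 and -0.60. Foxa2 read 1.93 in clone 8, against -0.02 in A6 and 0.08 in B2. On these arrays clone 8 therefore stood above ESC for these endoderm genes without the mark of differentiation, and A6 and B2 stood near or below them. Each clone met V6.5 on 1 array, always with the clone in Cy3. A ratio over ESC thus has no replicate and holds any dye bias. The ratios on these arrays correlated with the deposited log2 ratios at 0.98 in clone 8, 0.635 in A6 and 0.789 in B2. The count of 1069 depended on the normalization and on single arrays: it was 0 with ratios centred on the median in place of loess and 2388 with the scanner's processed signals. It was also 352 and 3 without the clone 8 array beside MEF or V6.5, 7 and 198 without those of B2 and 1 without that of A6 beside MEF.

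**Figure D5:**
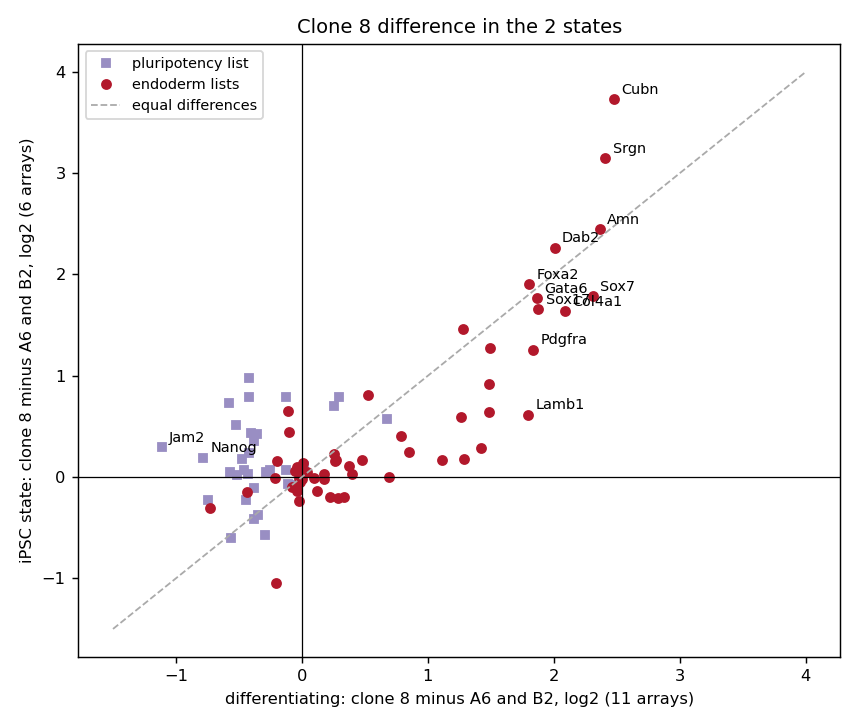
Difference of clone 8 from A6 and B2 in the differentiating state (horizontal axis, log2, 11 arrays) against that in the iPSC state (vertical axis, log2, 6 arrays) for the endoderm and pluripotency lists. The dashed line marks equal differences. Endoderm genes such as Srgn (2.41 and 3.15), Cubn (2.48 and 3.73) and Foxa2 (1.80 and 1.90) were high on both axes, while Nanog was at -0.78 and 0.19.

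Whether the clone 8 difference itself changed between the states was tested over all arrays. With 18 arrays 831 genes had a larger difference in the differentiating state (3.46%) and 429 a smaller one (1.78%), 5.24% in all, and without the odd array 1639 (6.82%) and 765 (3.18%), 10% in all. Of the 56 endoderm genes, 8 were called higher and 2 lower without the odd array. The 8 were Lamb1, Lamc1, Lamb2, Lama5, Sparc, Plat, Lrp2 and Pth1r, by 0.60 to 1.18, and the 2 were Kit (-0.76) and Apoe (-0.55). With 18 arrays 1 was higher, Lama5, and 2 were lower, again Kit and Apoe. No transcription factor of the lists was called in either test (Gata6 0.11, adjusted p = 0.917, and Foxa2 -0.10, adjusted p = 0.921, without the odd array). All of the 8 but Lama5 are among the 27 that were found higher on the same differentiating arrays, so they were not chosen independently of this test. In the pluripotency list the difference was lower in the differentiating state for 16 of 32 genes without the odd array and for 9 with it, and higher for none. Nanog changed by -0.97 (adjusted p = 0.000133, or 0.408 with 18 arrays), Klf2 by -1.39 and Klf4 by -1.21 without the array. With ratios centred on the median the 18-array test called 8 genes in place of 1260, and leaving out single arrays other than the odd one gave 461 to 1362.

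Chromosome 8 was shifted as a whole in clone 8. The median difference of its 1178 genes was 0.07 with 12 arrays and 0.09 without the odd array, while the other autosomes ran from -0.02 to 0.01 and from -0.03 to -0.00. In the iPSC state it was also 0.07. Of the genes on chromosome 8, 21.3% were called higher with 12 arrays and 36.6% without the odd array, against at most 7.42% and 12.8% on any other autosome. The 3 endoderm genes on this chromosome, Col4a1, Col4a2 and Plat, were all higher in clone 8, by far more than the chromosome's median. Between A6 and B2 the chromosome 8 median was 0.00. The part of this shift in the calls of single genes was not tested.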

How the data were processed

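RNA of 3 Dnmt3ab deficient iPSC clones and their partners had been hybridised to 2-colour Agilent arrays and scanned. The deposited intensity values are mean signals and local background medians from Feature Extraction 10.1.1.1, per the file headers, with probe positions on mm7. The deposited processed intensity of the scanner served as an alternative, and its deposited log10 ratio was not used. The deposited table of log2 ratios was made with limma, per the submitters' processing notes, with settings not given in the sources used here. Its direction and scale were read from the values, and it correlated with the signal ratios at 0.635 to 0.999.

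Background was corrected with normexp (offset 50) and each array normalized by loess in limma 3.58.1 (R 4.3.3). Control spots and outlier flags were left out, at most 0.447% of spots being flagged on an array. Of 41174 probes, 36957 were kept, and the brightest kept probe stood for a gene. Symbols came from RefSeq by accession (14467 names), symbol (2411) or synonym (1197), and otherwise from the files (5975). Names on chromosomes X and Y (1065) were left out, which left 24050 genes. No spot was saturated in the 12 arrays. The number of arrays limits the precision.

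Each gene's clone over control ratio was fitted with limma as clone 8 against A6 and B2, with control line and dye as terms and 6 residual degrees of freedom (5 without 1 array). P-values were adjusted by Benjamini-Hochberg over all genes, with calls at 0.05. The random block had a correlation of 0.00973 with 12 arrays and 0.199 with 11. The scripts were tested on simulated data. Named genes were the markers, Dnmt3a, Dnmt3b, the core pluripotency factors and up to 4 called members of each of the 16 lists. They also included the 8 largest rises and 8 largest falls with 1 sign in every comparison matched by control line and a smaller difference between A6 and B2. Members and lists were chosen with earlier results of these data known. Alternatives covered the background, normalization, probe filter and summary, dye, control line, clone, chromosomes 8 and 3, and single arrays. One list member is not reported or drawn here.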

Additional observations from a re-analysis of the deposited data

Results flagged for a closer look

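In 44 of 276 groups of 4 arrays tested, 1 array stood apart from the other 3 of its clone by more than the 95% critical value of Dixon's test. Among plain replicates chance gives this in about 1 of 20 groups. That rate is no yardstick here, since each of the 4 arrays had another control line, 1 of them had the other dye, and only named genes were tested. Many of these were named for their difference without the odd array, so their standing apart on it follows in part from that choice. The array labelled clone 8 with control line 5 accounted for 17 of the 44. Its log2 ratios over the control were Gata6 (-0.28), Lama1 (-0.16), Nanog (0.39), Plbd1 (-0.18), Dkk1 (-0.45), Enpep (-0.016), Amn (-0.14), Hs3st1 (-0.46), Plat (-0.11), Sox17 (-0.37), Col4a1 (-0.36), Lamb1 (-0.17), Col4a2 (0.025), Dab2 (-0.067), Ctsh (-0.39), Dusp6 (0.057) and Tfap2c (0.45).

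Control line 6 accounted for most of the rest. With clone 8 on that line the ratios that stood apart were Wnt10a (0.71), Khdc3 (-0.54), Mmrn2 (-1.24) and Tead4 (-0.35). With A6 they were Cd99 (0.40), P3h4 (0.31), Smc1b (1.08), Aurkc (-0.16), Pop4 (-0.37), Calcoco2 (-2.0), Krt8 (0.047), Jam2 (-1.85) and Gata2 (-0.94), and with B2 Cd99 (0.18), Khdc3 (1.17), Aurkc (0.48), Mmrn2 (0.34), Bub1 (0.45), Jam2 (-1.59) and Coro1a (0.19). On other lines, Car2 (-2.59) stood apart in A6 on line 4, Plbd1 (0.97), Egr1 (-0.22), Mki67 (-0.26) and Birc5 (0.15) in A6 on line 5, and Nodal (-0.44) and Mki67 (-0.17) in B2 on line 4. A control line enters every clone's ratio, so these ratios carry the level of the control RNA as well. They are also not adjusted for dye. Clone 8 on line 6, A6 on line 5 and B2 on line 4 were the arrays with the clone in Cy5. Ratios that stood apart there hold any dye bias, and the part of the dye was not tested.

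For 20 named genes the clone 8 difference changed between the states over 18 arrays (limma, interaction of clone and state, adjusted p under 0.05). It was higher in the differentiating state for Dok2 (1.90), Krt19 (1.66), Krt18 (1.51), Car2 (1.31), Dnmt3b (1.23), Ccn1 (1.16), Pdlim4 (1.09), Ccn2 (0.82), Cdh11 (0.77) and Postn (0.74), in log2 units. It was lower in the differentiating state for Stra8 (-2.37), Khdc3 (-1.92), Smc1b (-1.55), Gsc (-1.0), Egr1 (-0.99), Dppa5a (-0.60), Sox2 (-0.58), Tdgf1 (-0.53), Dppa4 (-0.47) and Ect2 (-0.41). All 20 were also called without the odd array, in the same direction. Dnmt3b, for example, differed by 0.17 in the differentiating state and by -1.05 in the iPSC state. The states were read on different slides and beside different partner RNA, and the part of these in the changes was not tested.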

How the results depend on the processing

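Alternatives were run for the markers, Dnmt3a, Dnmt3b, the core pluripotency factors and the 16 largest changes with 12 arrays. None of these that was called with 12 arrays changed sign. The 16 largest changes had been named for 1 sign in every comparison matched by control line. Their kept sign without arrays, lines or a clone largely follows from that choice. Srgn (0.25, not called) ran from -0.87 to 2.41 and Lama1 (0.32, not called) from -0.13 to 1.28 without single arrays. The 2817 genes called with 12 arrays became 446 with median centring in place of loess, 1397 without the dye term, 445 on the arrays with the clone in Cy3, 768 without clone A6, 269 without clone B2 and 0 over 3 clone values. Single arrays left out gave 513 to 5213, and single control lines gave 1247, 611, 5334 and 73 without lines 3, 4, 5 and 6. The 6 endoderm genes became 11 with the deposited value table, 0 in Cy3, 0 over clone values, 2 without A6 and 0 without B2. They ran from 0 to 31 without single arrays and were 2, 0, 32 and 0 without lines 3 to 6. The 595 genes between A6 and B2 became 994 with the scanner's processed signals, 1 with median centring, 1561 with the deposited table, 320 without chromosomes 8 and 3, 158 without the dye term and 44 in Cy3, and 148 to 3347 without single arrays. They were 104, 0, 2393 and 0 without lines 3 to 6.

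Without the array labelled clone 8 with control line 5, a set chosen after seeing the data, the 5213 genes became 2448 with median centring, 2913 without the dye term, 2477 in Cy3, 0 over clone values, 10012 without A6 and 1419 without B2, and 2037 to 5882 without a further array. The 31 endoderm genes became 0 over clone values and 17 without B2, and 21 to 35 without a further array. The 3347 genes between A6 and B2 became 5759 with processed signals, 403 with median centring, 7021 with the deposited table, 612 without the dye term and 726 in Cy3, and 1304 to 4467 without a further array. The iPSC count of 1069 became 2388 with processed signals and 0 with median centring, and 1 to 1029 without single arrays. The 1260 genes that changed between states became 2174 and 8 under the same 2 settings, and 461 to 2404 without single arrays. The cause of these moves was not tested, except that fewer arrays leave fewer degrees of freedom.

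The control line paired the clones and stood in every fit as a block. With no replicate block for the control line the 2817, 6 and 595 genes became 612, 0 and 85 with 12 arrays, and the 5213 and 3347 became 2185 and 226 without the array, where 25 endoderm genes were called.

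Each clone is 1 source of RNA on 1 slide in each state, so these counts describe arrays. Signal over background limits the dimmest genes: Habp2 had just a bound.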
